A study of Homo sapiens with 5 samples.

Results

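The peaks that each of 2 anti-SF-1 antibodies found in the same cells at high SF-1 dosage were compared, with the peaks of one antibody set against those of the other. The factor, SF-1 (steroidogenic factor-1, encoded by NR5A1), was mapped by ChIP-seq. The cells, H295R/TR SF-1, are a single inducible subclone derived from the human adrenocortical tumor line H295R, and doxycycline raises their SF-1 level. Chromatin of cells kept with doxycycline for 3 days, here called the overexpressed dosage, was precipitated with an antibody from Millipore, a rabbit polyclonal serum per the study's methods, or with one named Perseus in the labels. Each antibody gave 1 peak list, called by the authors on 3 pooled libraries, and 2 libraries of input DNA served as control. Both lists therefore come from the same inducible subclone under the same treatment, and the antibody, the libraries and their depth cannot be told apart.

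A peak was counted as shared when it overlapped a peak of the other antibody by at least 1 bp. The Millipore list held 11910 peaks and the Perseus list 7453, so 19363 of the 30372 peaks of the whole series were in these lists. Of the Millipore peaks, 10543 (88.5%) overlapped no Perseus peak, and these are called Millipore only. Of the Perseus peaks, 6077 (81.5%) overlapped no Millipore peak, and these are called Perseus only. The shared set was 1367 Millipore peaks, 11.5% of their list (95% Wilson interval 10.9 to 12.1), facing 1376 Perseus peaks, 18.5% of theirs (17.6 to 19.4). There is 1 list per antibody and no replicate error, so no p-value was computed. The intervals below cover counting error over peaks only.

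SF-1 is a nuclear receptor that binds DNA as a single molecule at an extended half-site, in which the core of the nuclear receptor half-site is preceded by a few fixed bases. In adrenal cortex it is known for switching on the enzymes that turn cholesterol into steroid hormones. NRSF/REST is a zinc finger repressor that keeps neuronal genes silent outside the nervous system, and binds a long composite element. In ChIP-seq the DNA fragments recovered with an antibody are sequenced and placed on the genome, and a peak is a stretch with more reads than the control.

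The sequences below stand for the classes compared, all on the forward strand of hg19 (GRCh37). The first 3 are the best-ranked peaks of each class with the SF-1 consensus, written NCAAGGNCN where the first and second N are C or T and the last is A or G. The consensus, on either strand, is in capitals. They lie at chr10:124671714-124671833 in an intron close to the start of FAM24A, at chr1:569900-570019 with OR4F16 as the closest coding gene, and at chr19:58070701-58070768 in an intron close to the start of ZNF550.
Millipore only, rank 10: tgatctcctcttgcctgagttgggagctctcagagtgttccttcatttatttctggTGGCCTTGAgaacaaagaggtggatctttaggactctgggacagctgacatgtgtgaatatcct
Perseus only, rank 20: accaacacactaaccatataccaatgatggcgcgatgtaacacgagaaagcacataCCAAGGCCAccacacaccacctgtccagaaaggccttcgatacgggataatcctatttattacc
Shared, Millipore rank 80: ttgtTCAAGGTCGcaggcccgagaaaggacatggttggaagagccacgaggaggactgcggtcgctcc

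The next sequence is from the best-ranked Millipore only peak, which was also the best-ranked with the NRSF/REST consensus and the best-ranked near a promoter. It lies at chr11:66189172-66189291 in an intron at NPAS4, a neuronal transcription factor gene, with its centre 869 bp downstream of the transcription start site (TSS). The capitals mark the element of 21 bases, which lies on the reverse strand and has 2 mismatches at its 19 fixed positions.
Millipore only, rank 2: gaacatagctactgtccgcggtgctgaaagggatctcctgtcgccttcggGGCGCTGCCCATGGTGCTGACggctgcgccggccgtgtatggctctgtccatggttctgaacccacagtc

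The last pair is of Perseus only peaks. The promoter example is from an intron at the start of PPP2R5E, a phosphatase subunit gene, at chr14:64009340-64009459, with the 9 CpG dinucleotides in capitals. This peak also held 1 copy of the SF-1 consensus, which is not marked. Stretches that touched an untranslated exon of any transcript or held unknown bases were passed over. The middle of the better-ranked promoter peak at DCUN1D2 touched such exons and is not printed, although its centre was in coding sequence. The best-ranked peak of the list, at chr10:42535575-42535724, is shown in lower case because it held neither consensus. Its GC content was 35.3% over the bases shown, against 74.2% in the promoter example.
Perseus only, rank 77: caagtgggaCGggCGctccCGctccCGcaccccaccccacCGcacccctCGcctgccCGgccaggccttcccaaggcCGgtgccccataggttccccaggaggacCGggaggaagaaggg
Perseus only, rank 1: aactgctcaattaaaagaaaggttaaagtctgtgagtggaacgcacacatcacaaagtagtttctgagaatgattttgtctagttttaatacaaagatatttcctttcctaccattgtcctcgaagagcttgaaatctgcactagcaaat

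The peaks of the shared set lay close together. The median overlap was 149 bp, where the median widths of the shared peaks were 249 bp (Millipore) and 199 bp (Perseus). The median distance between centres was 50 bp, the grid on which the starts fall. Only 130 of the overlaps (9.51%) were of 50 bp or less. Few one-antibody peaks were near misses. Within 50 bp of their edges, 61 Millipore only peaks (0.579%) and 55 Perseus only peaks (0.905%) had a peak of the other antibody. Within 500 bp the numbers were 434 (4.12%) and 394 (6.48%). Within 100 kb they were 6004 (56.9%) and 4022 (66.2%), so most peaks of each class had a peak of the other antibody that near. The share of arbitrary positions with such a peak within 100 kb was not computed. These values therefore do not show that the classes lie nearer to each other than to other positions.

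Sharing fell with rank in both lists. In the first of 10 equal parts by rank, 411 of 1191 Millipore peaks (34.5%, 31.9 to 37.3) and 258 of 745 Perseus peaks (34.6%, 31.3 to 38.1) were shared. In the last part the shares were 4.53% (3.49 to 5.87) and 11.7% (9.55 to 14.2). With the Millipore list held to its 7453 best ranks, 1119 Millipore peaks (15.01%) and 1130 Perseus peaks (15.2%) were shared. This left 6334 Millipore only and 6323 Perseus only peaks, and set 4457 Millipore peaks aside. The plot of peaks by rank gives each part.

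**Figure D1:**
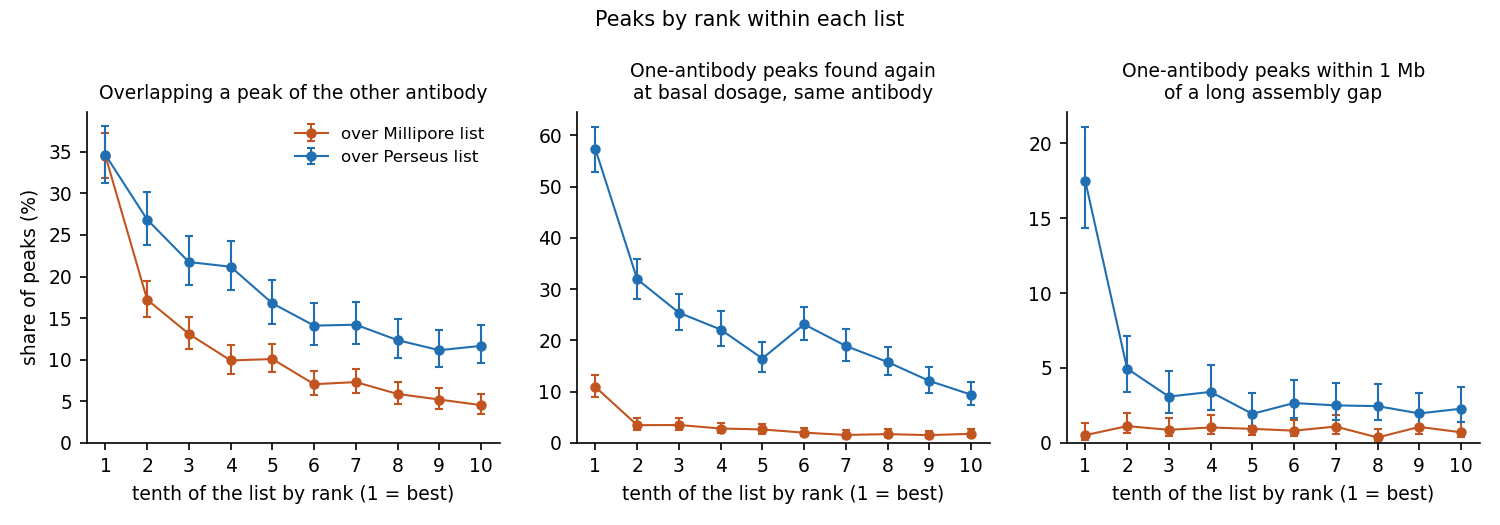
Share of peaks (%, y axis) in each of 10 equal parts of the over Millipore list (orange) and the over Perseus list (blue) by rank (x axis, 1 is best), with 95% Wilson intervals as bars. Left, peaks shared with the other antibody, 34.5% and 34.6% in the best part; centre, one-antibody peaks found again at basal dosage with the same antibody, 10.9% and 57.3%; right, one-antibody peaks within 1 Mb of a long assembly gap, 0.513% and 17.5%.

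Perseus only peaks were more often at promoters than Millipore only peaks. The centre was at most 1 kb from a protein-coding TSS in 25.9% (1571 of 6077), against 10.4% (1098 of 10543), a difference of 15.4 percentage points (95% Newcombe interval 14.2 to 16.7). Shared peaks resembled the Perseus only class here, with 29.7% on the Millipore side. Within 10 kb the shares were 41.0% and 28.2%, a difference of 12.8 points (11.3 to 14.3). Beyond 100 kb the classes did not differ beyond counting error, at 24.7% and 25.9%, with an interval of the difference from -2.61 to 0.128 points. The median distance to a coding TSS was 20443 bp for Perseus only, 32492 bp for Millipore only and 10364 bp for shared peaks.

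The plot of distances to start sites shows where the classes part. Under 100 bp from a TSS lay 5.64% of Perseus only peaks and 1.80% of Millipore only peaks. From 1 to 3 kb the shares were close, at 6.15% and 5.82%. From 30 to 100 kb Millipore only peaks led, at 25.7% against 19.1%. Starts of long noncoding RNA genes away from coding ones followed the same order, with 4.36% of Perseus only peaks within 1 kb and 2.75% of Millipore only peaks, a difference of 1.61 points (1.02 to 2.23).

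**Figure D2:**
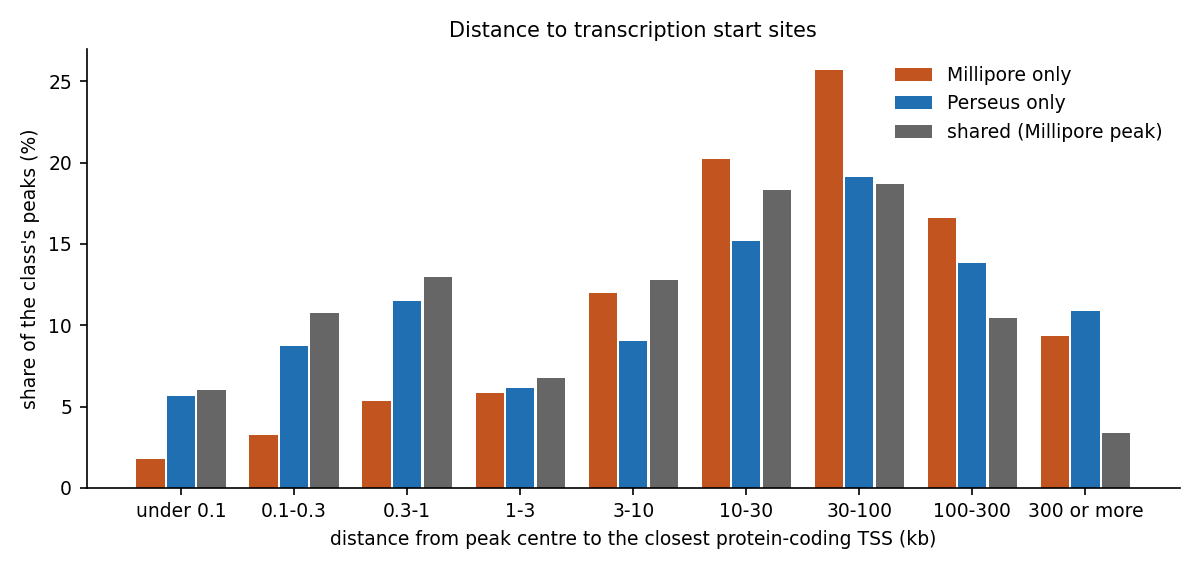
Share of each class's peaks (%, y axis) by distance from the peak centre to the closest protein-coding TSS (kb, x axis) for Millipore only (orange), Perseus only (blue) and shared peaks (grey, the Millipore peak of each pair). Under 0.1 kb stand 5.64% of Perseus only and 1.80% of Millipore only peaks, and from 30 to 100 kb 19.1% and 25.7%.

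By gene parts, the peak centre was in an untranslated exon in 10.1% of Perseus only and 5.501% of Millipore only peaks, a difference of 4.60 points (3.74 to 5.49). Introns of coding genes held fewer Perseus only peaks, 42.2% against 46.2%, and coding exons 4.87% against 6.05%. With the 7453 best ranks of each list the coding exon difference was lost, at 5.39% and 5.81% (interval of the difference -1.22 to 0.385). Intergenic sequence held nearly equal shares, 30.3% and 29.9%, with an interval of the difference from -1.02 to 1.87 points. A window of 500 bp with the composition of a CpG island (GC content over 50% and a CpG observed over expected ratio over 0.6) surrounded the centre of 32.7% of Perseus only and 11.4% of Millipore only peaks, a difference of 21.3 points (19.95 to 22.6). Within 1 kb of a TSS, 86.9% of Perseus only and 70.7% of Millipore only peaks were of this kind, against 84.5% of shared peaks.

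GC content set the classes apart less by its mean than by its spread. The mean was 54.7% ± 8.95 (SD over 10543 peaks) for Millipore only and 52.7% ± 15.1 (SD over 6077 peaks) for Perseus only, and 60.8% ± 9.36 (SD over 1367 peaks) for shared peaks. Windows of the same widths placed 5 kb to each side averaged 46.1%, 44.1% and 48.2%. Most Millipore only peaks, 83.1%, had a GC content from 40 to 65%, against 44.1% of Perseus only peaks. At the low end, under 40% GC, stood 27.7% of Perseus only peaks and 4.95% of Millipore only peaks. At 65% GC or more stood 28.2% and 11.97%. These limits were chosen after the values were seen.

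The 3 GC groups of Perseus only peaks were of different kinds. The 1684 peaks of low GC content were within 1 kb of a TSS in 1.54%, and farther than 100 kb from any coding TSS in 47.5%. The Millipore only peaks of low GC content were placed in the same way, with 0.575% and 51.7%. The SF-1 consensus stood in 12.3% of the former, against 2.30% of the 522 Millipore only peaks of low GC content. The 2681 peaks of middle GC content carried the consensus in 20.03%, against 8.84% for Millipore only, and 17.3% of them were at promoters against 6.45%. The 1712 GC-rich peaks were at promoters in 63.1% and island-like in 87.0%, with the consensus in 9.58%. For the 1262 GC-rich Millipore only peaks the shares were 42.0%, 57.5% and 6.18%.

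GC content was also held equal. In 10 of 10 strata of GC content the share within 1 kb of a TSS was higher in Perseus only peaks. Weighted to the same GC distribution, it was 24.5% for Perseus only and 12.8% for Millipore only, a difference of 11.7 points. At 60 to 65% GC the shares were 40.9% (36.7 to 45.3) and 15.3% (13.7 to 17.2). At 75% GC or more they were 69.3% (64.6 to 73.6) and 67.8% (59.9 to 74.8), and did not differ beyond counting error.

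**Figure D3:**
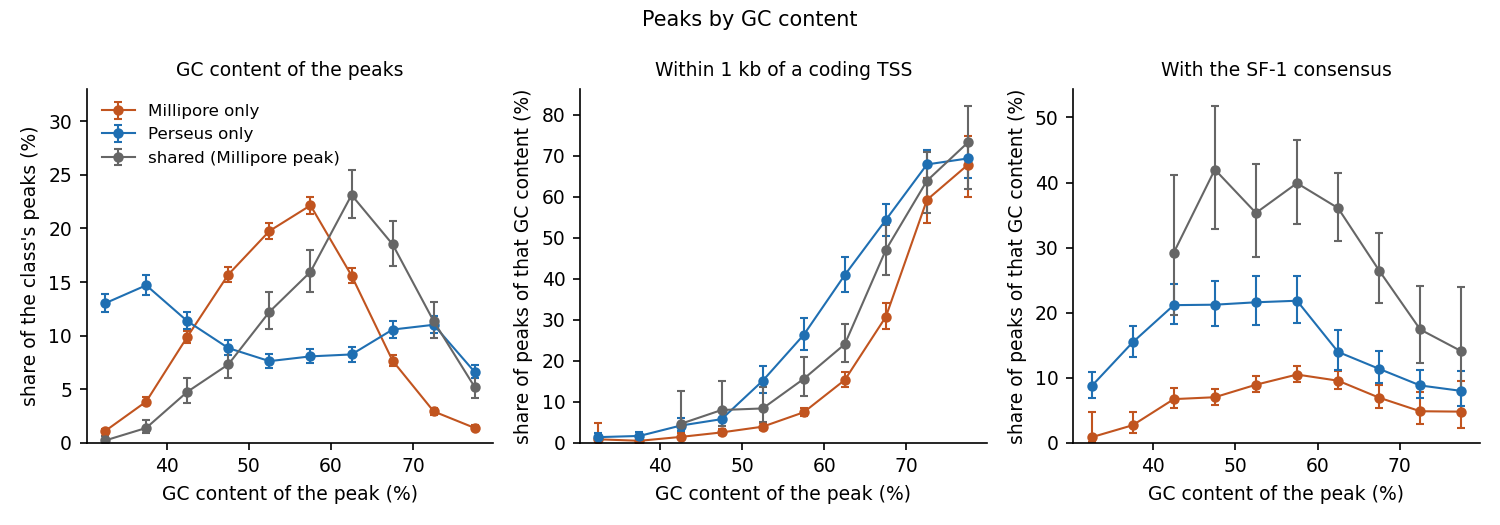
Left, share of each class's peaks (%, y axis) by GC content of the peak (%, x axis) in steps of 5 points, with the outermost points holding all peaks under 35% or at 75% and more. Centre and right, share of the peaks of that GC content within 1 kb of a coding TSS and with the SF-1 consensus, where at least 50 peaks were present; bars are 95% Wilson intervals, Perseus only (blue) lies above Millipore only (orange) in 10 of 10 strata in both, and shared peaks are grey.

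The SF-1 consensus was most frequent in shared peaks and least frequent in Millipore only peaks. It stood in 31.5% of shared Millipore peaks (430 of 1367) and 27.3% of shared Perseus peaks (376 of 1376). Of Perseus only peaks, 14.9% (908) held it, and of Millipore only peaks 8.20% (864), a difference of 6.75 points (5.72 to 7.80). In the windows 5 kb away it was found in 1.66% near Millipore only, 1.29% near Perseus only and 1.90% near shared Millipore peaks. Over these windows the consensus was 11.6 times as frequent in Perseus only, 4.93 times in Millipore only and 16.5 times in shared Millipore peaks. All classes were thus above their surroundings.

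At equal GC content the difference was larger. The share with the consensus was higher for Perseus only in 10 of 10 GC strata, and weighted to the same GC distribution it was 17.3% against 7.32%. The equal-GC weighting was added after the values were seen. By location, the following values were found, and the difference between locations was not tested. Over 10 kb from a TSS, 16.7% (15.5 to 17.9) of Perseus only and 8.12% (7.53 to 8.76) of Millipore only peaks held the consensus. Within 1 kb the shares were 8.98% (7.66 to 10.5) and 6.10% (4.83 to 7.68). Distal shared Millipore peaks held it in 37.4%.

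Searched in the whole peak, the consensus became rarer with rank in both classes. From the first to the last of 4 equal parts by rank it fell from 11.9% to 5.62% in Millipore only peaks and from 17.2% to 12.5% in Perseus only peaks. Millipore only peaks of the 7453 best ranks were wider, with a median of 199 bp against 149 bp for all. In 200 bp about the centre, 9.44% of the former and 9.33% of all Millipore only peaks held the consensus. How much of the fall goes with peak width was not tested. The median distance from the peak centre was 36 bp in Millipore only, 34 bp in Perseus only and 41.5 bp in shared Millipore peaks. Peaks with 2 or more copies were 5.93% of shared Millipore peaks but 0.920% of Millipore only and 0.724% of Perseus only peaks, and the difference between the last pair had an interval from -0.469 to 0.101 points. With the 7453 best ranks of each list the shares were 1.25% of Millipore only and 0.791% of Perseus only peaks. This difference was beyond counting error (-0.816 to -0.106 points). Copies were counted in the whole peak, and median widths there were 199 bp for Millipore only and 149 bp for Perseus only. Shared Millipore peaks had a median width of 249 bp. Copies at equal width were not compared.

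NRSF/REST went the other way. Its consensus, with at most 4 mismatches, stood in 0.768% of Millipore only peaks (81) and 0.230% of Perseus only peaks (14), 3.33 times as frequent in the former, with a difference of -0.538 points (-0.745 to -0.322). In windows 5 kb away the shares were 0.133% and 0.0577%. The Millipore only matches stood at the top of the list. In the first of the 10 parts by rank 4.87% (3.57 to 6.62) of the Millipore only peaks held the element, and in the next 0.710%. Of the 100 best-ranked Millipore only peaks, 29 held it and 20 held the SF-1 consensus. Of the 100 best-ranked Perseus only peaks, 0 held it and 8 held the SF-1 consensus. A count of 0 in 100 peaks allows a share of up to 3.00%, here and below. The best-ranked sets of 100 were chosen after the values were seen. Both consensus sequences together stood in 7 Millipore only peaks and 3 Perseus only peaks.

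Other factors' sequences were searched in 200 bp about every centre, the same width in all classes. Motifs of general promoter factors were more frequent in Perseus only peaks. CCCCGCCC, bound by SP and KLF factors, was in 7.65% of them and 2.35% of Millipore only peaks. The NRF1 motif was in 1.68% and 0.512%, and CCGGAAGT of ETS factors in 1.15% and 0.360%. Shared Millipore peaks were at 7.97%, 2.19% and 2.12%. In windows of 200 bp placed 5 kb from Perseus only peaks the shares were 1.03%, 0.0412% and 0.115%.

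Within 1 kb of a TSS the SP/KLF motif still differed, at 18.5% (16.6 to 20.5) for Perseus only and 9.11% (7.55 to 10.96) for Millipore only. Mean GC content there was 67.5% for Perseus only and 64.2% for Millipore only peaks, and this motif was not compared at equal GC content. The intervals for NRF1, 4.26% (3.37 to 5.38) and 3.19% (2.30 to 4.40), overlapped at promoters, as did those for ETS, 3.31% (2.53 to 4.31) and 2.00% (1.33 to 3.02). Both shares were higher in Perseus only peaks. Overlap of single intervals does not show that shares are equal, and intervals of the differences at promoters were not computed. Over 10 kb from a TSS the bare nuclear receptor half-site AGGTCA was in 27.7% of Perseus only, 21.8% of Millipore only and 39.1% of shared Millipore peaks. Within 1 kb it was in 11.8% (10.3 to 13.5) of Perseus only and 13.0% (11.2 to 15.1) of Millipore only peaks, with overlapping intervals.

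A pair of sequences was more frequent in Millipore only peaks. The E-box CACGTG was in 4.56% of them and 3.19% of Perseus only peaks, a difference of -1.37 points (-1.96 to -0.762). Windows 5 kb away differed in the same direction, with 2.63% near Millipore only and 1.95% near Perseus only peaks. Over these windows the E-box was 1.73 and 1.63 times as frequent in the peaks. TGANTCA of AP-1 was in 5.76% and 4.89%, a difference of -0.870 points (-1.56 to -0.156), near the 5.55% and 5.90% of windows 5 kb away. CTCF was slightly more frequent in Perseus only peaks, 0.625% against 0.351%. The motifs of YY1 (AAGATGGC), the cAMP response element (TGACGTCA), the factor NFY (CCAATCA) and the family of GATA factors, searched as AGATAAG, did not differ beyond counting error, with intervals that included 0 for each.

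**Figure D4:**
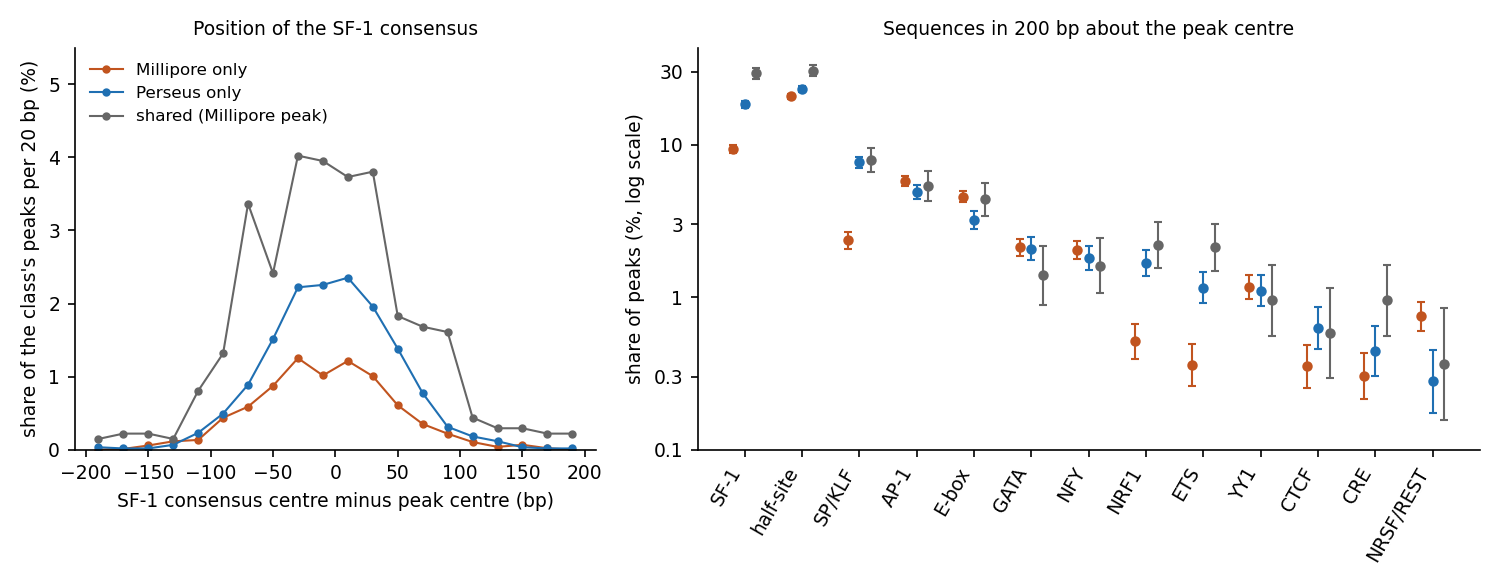
Left, share of each class's peaks (%, y axis) whose SF-1 consensus closest to the centre falls in each 20 bp step of distance from the peak centre (bp, x axis). Right, share of peaks (%, log scale) with each sequence in 200 bp about the centre, with 95% Wilson intervals as bars, for Millipore only (orange), Perseus only (blue) and shared Millipore peaks (grey); SP/KLF stands at 2.35%, 7.65% and 7.97%, and NRSF/REST is highest in Millipore only.

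Sequence present in many copies was more common in Perseus only peaks. The measure was the share of words of 32 bases in a peak that occur more than once in the genome, since the reference used did not mark repeats. It averaged 5.87% in Perseus only, 1.12% in Millipore only and 2.18% in shared Millipore peaks. Windows 5 kb away averaged 18.3%, 14.0% and 15.1%, so peaks of all classes held less than their surroundings. Peaks with over 50% such words were 4.34% of Perseus only and 0.465% of Millipore only, a difference of 3.88 points (3.37 to 4.43). Among shared Millipore peaks the share was 1.02%.

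Perseus only peaks were also more often beside the long gaps of the assembly, which include the centromeres. Within 1 Mb of a gap of at least 1 Mb lay 239 Perseus only peaks (3.93%) and 90 Millipore only peaks (0.854%), a difference of 3.08 points (2.58 to 3.62). Among shared Millipore peaks the share was 1.61%. Tandem repetition was read from the shift at which a window of 2 kb best matched itself, and the most common shift at Perseus peaks near gaps was 171 bp, the known unit length of the alpha satellite of human centromeres. This measure was chosen after the values were seen and its length was taken from the Perseus list, so the shares are a description. A repetition of that length or its double was found around 1.81% of Perseus only and 0.0664% of Millipore only peaks. Of the 239 Perseus only peaks near gaps, 89 had it, 97 had over 50% multi-copy words and 5 held the SF-1 consensus.

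These peaks took high ranks in the Perseus list. Their median rank was 1727 of 7453, against 5903.5 of 11910 for the 90 Millipore only peaks near gaps. Of the 100 best-ranked Perseus only peaks, 49 lay within 1 Mb of a long gap, 48 had the tandem repetition and 16 were at promoters. Of the 100 best-ranked Millipore only peaks, 0 lay near a gap and 11 were at promoters. Ranks 1, 2 and 3 of the Perseus list were Perseus only, without the SF-1 consensus, at chr10:42535551-42535749, on chromosome 8 with POTEA as closest coding gene, and at chr11:48804951-48805199. Multi-copy words made up 100%, 69.4% and 29.8% of them, and all were found again in the basal Perseus list. The rank 3 peak was not among those near gaps, since the closest long gap was 2789006 bp away.

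Over 50% of the words of 25 bases also stood in the mitochondrial genome in 4 Perseus only peaks and 0 Millipore only peaks, where a count of 0 allows a share of up to 0.0285%. The best-ranked of them was the rank 20 peak printed above, with 66.6% of such words. In this peak, 59.3% of the words of 32 bases occurred more than once.

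The basal lists were not used to define the classes. They were made from cells without doxycycline and held 4393 peaks with the Millipore and 6616 with the Perseus antibody, and the unequal lengths bear on how many peaks can be found again. Perseus only peaks recurred with their own antibody at basal dosage in 22.2% (1347 of 6077), against 2.92% of Millipore only peaks (308 of 10543) with theirs, a difference of 19.2 points (18.2 to 20.3). In the first of the 10 parts the shares were 57.3% (52.9 to 61.6) and 10.9% (8.90 to 13.3). Against the opposite antibody the classes were close. Of Millipore only peaks 3.54% recurred in the basal Perseus list, and of Perseus only peaks 3.51% in the basal Millipore list. Shared Millipore peaks recurred in 17.0% in the basal Millipore and in 44.3% in the basal Perseus list.

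Recurrence of Perseus only peaks differed with location. At promoters 30.6% (28.4 to 32.9) of Perseus only peaks were found again in the basal Perseus list, and over 10 kb from a TSS 18.6% (17.4 to 19.9). Of Millipore only promoter peaks, 11.3% (9.55 to 13.3) recurred in the basal Perseus list but 2.37% (1.62 to 3.45) in the basal Millipore list. Over 10 kb from a TSS 3.06% (2.70 to 3.48) of Millipore only peaks recurred in the basal Millipore list, and these intervals overlapped. Of the 239 Perseus only peaks near gaps, 144 were found again in the basal Perseus list.

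By rank, the leading Millipore only peaks were the one at NPAS4 (rank 2), one at chr9:128844951-128845549 with MVB12B as closest coding gene (rank 3) and one at chr9:126872551-126873049 in intergenic sequence, 108851 bp from the closest coding start, that of LHX2 (rank 4). Their closest NRSF/REST match had 2, 4 and 3 mismatches, none held the SF-1 consensus, and all were found again in the basal Millipore list. The best-ranked Millipore only peak with the SF-1 consensus, rank 10 near FAM24A, also held an NRSF/REST match with 2 mismatches. The best-ranked distal intronic one was at chr11:70496401-70496799 (rank 14), with 3 mismatches to NRSF/REST.

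For Perseus only, the best-ranked promoter peak was at DCUN1D2 (rank 63, chr13:114144601-114145549), 191 bp downstream of the start, with 1 copy of the SF-1 consensus. The best-ranked distal intronic one was at chr5:134259651-134260499, in an intron with PCBD2 as closest start (rank 19). It did not hold the SF-1 consensus. Multi-copy words made up 25.9% of this peak, and words that also stood in the mitochondrial genome 26.7%. The best-ranked one with NRSF/REST was at rank 744, near BHLHE40, with 4 mismatches. The leading shared peaks by their worse rank were at chr1:156186201-156186799 in an intron near PMF1 (Millipore rank 1, Perseus rank 8), at chr20:26189751-26190699 (ranks 6 and 25), and at chr17:31149601-31150049 in an intron with MYO1D as closest start (ranks 15 and 26). None held the SF-1 consensus. Multi-copy words made up 40.7%, 10.2% and 33.01% of these shared peaks, in the same order. The one at chr20:26189751-26190699 lay 128870 bp from a long gap.

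The shared peak with the best ranks among those with the SF-1 consensus was in an intron at ZNF550, a zinc finger gene, with Millipore rank 80 and Perseus rank 94. It also held an NRSF/REST match with 4 mismatches. The best shared promoter peak was at ANKRD30BL (ranks 20 and 68), without the SF-1 consensus.

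Genes were then sorted by the peaks whose centres lay within 10 kb of their TSS. Of 20163 protein-coding genes, 2317 (11.5%) had Millipore only peaks and no others, and 1944 (9.64%) had Perseus only peaks and no others. A shared site was near 854 genes (4.24%), and 654 (3.24%) had peaks of both antibodies at different sites. Within 1 kb the order of the first pair changed, with 1007 genes for Millipore only and 1471 for Perseus only. With the 7453 best ranks of each list it changed at 10 kb too, to 1492 and 2294. By closest start, Millipore only peaks pointed to 6246 of the 20163 genes and Perseus only peaks to 4288 of the 20163. In common were 2179 genes, 34.9% of the former and 50.8% of the latter. These percentages are to be read beside the shares of all genes that each class reached, and the overlap was not tested.

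Of 26 steroid synthesis genes and SF-1 targets, 3 had Millipore only peaks (11.5%, equal to the share over all genes). Perseus only peaks were near 2 (7.69%, against 9.64% of all genes) and a shared site near 3 (11.5%, against 4.24%). Both antibodies at different sites were near 4 (15.4%, against 3.24%), and 14 had no peak within 10 kb (53.8%, against 71.4%). STAR, the carrier that brings cholesterol into mitochondria, had a Millipore only peak 3165 bp upstream of its start (rank 3839) and a Perseus only peak 140 bp upstream (rank 5743). NR5A1 itself had Perseus only peaks 51 bp upstream and 2224 bp downstream of its start (ranks 6983 and 1909). Its Millipore only peaks were 524 bp and 6874 bp downstream (ranks 7317 and 4923). FDXR, the reductase that feeds electrons to mitochondrial steroid enzymes, and INSL3, a Leydig cell hormone gene, also had separate sites. At FDXR the Millipore only peak was 3194 bp upstream and the Perseus only peak 4406 bp downstream of the start. INSL3 had Millipore only peaks 5233 bp downstream, with the SF-1 consensus, and 3342 bp upstream, and a Perseus only peak 8642 bp upstream.

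Shared sites were near CYP11A1, POR and HSD17B1. CYP11A1, the side chain cleavage enzyme that starts steroid synthesis, had its shared site 1762 bp (Millipore rank 4917) and 1637 bp (Perseus rank 917) downstream of the start, in an untranslated exon. Millipore only peaks stood there at 187 bp downstream and 5713 bp upstream. POR, the electron donor of microsomal P450 enzymes, had shared sites 2168 bp upstream and 7057 bp downstream on the Millipore side (ranks 280 and 446). The Perseus peaks of these sites were 2243 bp upstream and 7107 bp downstream (ranks 4885 and 4266). Its Millipore only peak was 307 bp downstream. HSD17B1, which makes estradiol, had its shared site at 2060 bp (Millipore rank 4623) and 1985 bp (Perseus rank 6027) downstream.

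Millipore only peaks alone were near CYP11B2 (aldosterone synthase), FATE1 and AMH. The CYP11B2 peak, 6141 bp upstream (rank 2096), held the SF-1 consensus. It overlapped a peak of the basal Perseus list but no peak of the basal Millipore list. The FATE1 and AMH peaks given next overlapped no peak of either basal list. FATE1, a testis-expressed gene, had peaks 5343 bp and 4943 bp downstream at ranks 343 and 2495. AMH, the anti-Müllerian hormone, had one 6783 bp upstream (rank 8423). Perseus only peaks alone were near HSD3B2, the adrenal 3-beta-hydroxysteroid dehydrogenase, 3879 bp upstream (rank 3274), and near SULT2A1, which sulfates DHEA, 5503 bp upstream (rank 2392). No peak of either list lay within 100 kb of MC2R, INHA, NR0B1, CCN3, CYP19A1 or AKR1C3. For CYP17A1, CYP21A2, CYP11B1, HSD3B1, CYB5A, FDX1, MRAP and SCARB1 the closest lay beyond 10 kb.

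Of 30 genes of cholesterol supply, 6 had Millipore only (20%, against 11.5% of all genes), 5 Perseus only (16.7%, against 9.64%) and 1 a shared site (3.33%, against 4.24%), LSS (lanosterol synthase). SCAP, the escort of the sterol regulators, had 1 Millipore only and 3 Perseus only peaks, and NSDHL 1 of each. LIPE, a cholesterol ester hydrolase, had a Millipore only peak at rank 837. CYP51A1 and IDI1, enzymes of the synthesis pathway, had Perseus only peaks at ranks 1715 and 4907.

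Of 25 adrenogonadal transcription factors, 4 had Millipore only (16%, against 11.5% of all genes), 3 Perseus only (12%, against 9.64%), 4 a shared site (16%, against 4.24%) and 3 both at different sites (12%, against 3.24%). GLI1, CTNNB1 and NR0B2 were among those with a shared site. The NR0B2 site, near the gene of the corepressor SHP, ranked 23 with Millipore and 7380 with Perseus. NR4A3 and NR5A1 had both antibodies at different sites, and NR4A1 had 2 Perseus only peaks.

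Of 29 genes of cAMP and protein kinase A signalling, the pathway through which ACTH acts, 2 had Millipore only (6.90%, against 11.5% of all genes) and 7 Perseus only peaks (24.1%, against 9.64%). The 7 included the phosphodiesterases PDE8A, PDE4A and PDE11A and the G protein gene GNAS, at ranks 479, 1354, 2058 and 1838. ADCY1 had a shared site, and CRTC2 had both antibodies at different sites. Of 39 neuronal targets of NRSF/REST, 6 had Millipore only (15.4%, against 11.5% of all genes) and 2 Perseus only peaks (5.13%, against 9.64%). NPAS4 and CPLX2, a synaptic complexin, had Millipore only peaks at ranks 2 and 326. NEFH, a neurofilament gene, had a shared site at Millipore rank 69. CELSR3, GRIN1 and CPLX1 had both antibodies at different sites.

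Among housekeeping and clustered families, 9 of 83 ribosomal protein genes had Millipore only (10.8%) and 8 Perseus only peaks (9.64%), both near the shares of all genes, 11.5% and 9.64%. RPS29 had Perseus only peaks from rank 216, RPL13 Millipore only peaks from rank 821, RPS16 a shared site, and RPL35 both antibodies at different sites. Of 88 histone genes, 1 had Millipore only (1.14%), 9 Perseus only (10.2%, near that of all genes) and 8 a shared site (9.09%, against 4.24%). Neighbouring histone genes share peaks: H2AC11, H2AC12, H2BC11, H2BC12 and H4C9 had the same shared site, and H3-3B had a Perseus only peak at rank 829. Of 240 zinc finger genes of chromosome 19, 37 had Millipore only (15.4%) and 28 Perseus only peaks (11.7%), led by ZNF554 (rank 433) and ZNF805 (rank 387), and 6 had a shared site (2.5%). Of 39 HOX genes, 6 had Millipore only (15.4%), 5 Perseus only (12.8%) and 5 a shared site (12.8%), and the last 5 were HOXA9, HOXA10, HOXA11, HOXA13 and HOXC4. Neighbouring HOX genes share peaks too, so these counts exceed the number of sites. HOXA3 and 2 of its neighbours were counted by the same Millipore only peak (rank 2156). These counts stand beside the shares over all genes in the plot of gene lists. The lists are small and were not tested.

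**Figure D5:**
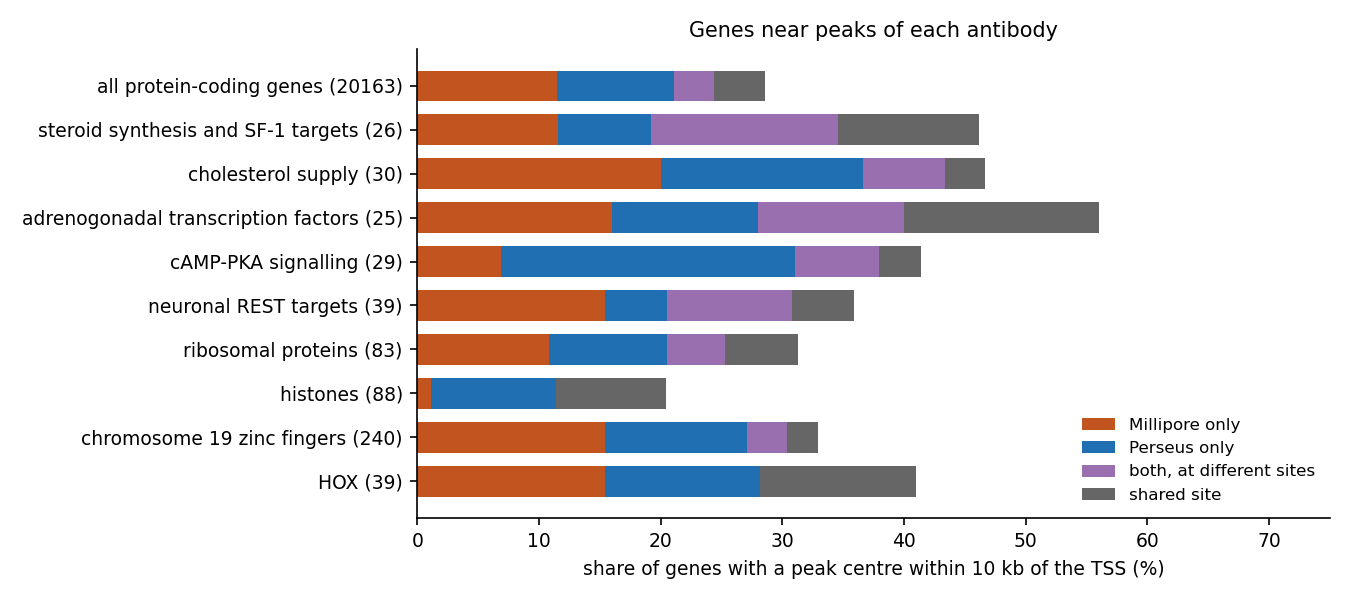
Share of genes (%, x axis) with a peak centre within 10 kb of the TSS, for all protein-coding genes and for 9 lists (y axis, number of genes in brackets), split into Millipore only (orange), Perseus only (blue), both antibodies at different sites (purple) and a shared site (grey). Over all genes the shares are 11.5%, 9.64%, 3.24% and 4.24%, and for cAMP-PKA signalling the blue part is 24.1%.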

How the data were processed

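ChIP-seq against SF-1 was done in the H295R/TR SF-1 subclone, and each of the 4 lists holds the peaks of 3 pooled libraries, without a value per replicate. Per the study's methods the authors mapped reads to hg19 with ELAND v2 and called peaks against input DNA with CisGenome v2 SeqPeak, and the submitters' processing notes name CASAVA 1.6. The deposited score is the rank of a peak in its list, from 1 for the best, and the quantity behind it is not stated. A second score column is 1000 for every peak and was not used. Read depth is unknown from the lists, so no interval reflects it.

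From the positions, a peak was shared when it overlapped a peak of the other antibody by at least 1 bp. GRCh37 sequence and the GENCODE release 44 annotation lifted to it gave GC content, motifs on both strands, start sites of 20163 protein-coding genes and gene parts. A distance is that of the centre of the peak from a gene's outermost start. The SF-1 consensus was searched in the whole peak, and NRSF/REST with at most 4 mismatches at 19 fixed positions. Overlaps between motifs were not removed. No sequence of chromosome 8 is shown. Surroundings were windows of the same width 5 kb to each side. Multi-copy sequence was counted in words of 32 bases, since repeats are not marked in the reference. Shares carry 95% Wilson and differences Newcombe intervals, which treat peaks as independent and cover counting error only. With 1 list per antibody no p-value can be had.

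The classes, gene lists and motifs were chosen with earlier results of these data known. Peaks were named by a fixed rule, the 3 best ranks of each class and the best-ranked at a promoter, with either consensus and in a distal intron. Of the gene lists, all members of the first and up to 6 of each other were named by rank. The steps were tested on simulated data with known answers. Alternatives were the best ranks of each list, the better-ranked 50%, GC strata, other windows, words and distances. The tools were samtools 1.23.1, numba 0.67.0, pysam 0.24.0 and Python 3.11.15 with scipy 1.17.1, pandas 2.3.3 and numpy 2.4.6.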

Additional observations from a re-analysis of the deposited data

How the results depend on the processing

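Of 66 recomputed values, 41 stayed within the main value's interval or within 1.5 times its count, 25 moved and 0 reversed. Only differences could be labelled reversed, since counts were compared by size alone. The order of the Millipore only and Perseus only gene counts, 2317 and 1944 in the main setting, did change. These counts became 1007 and 1471 within 1 kb, and 1492 and 2294 with the best ranks of each list. Within 100 kb the order held, at 4196 and 2128. Differences are Perseus only minus Millipore only in percentage points. With the best ranks of each list, the NRSF/REST difference was -0.836 (main -0.538) and 1492 genes had Millipore only peaks (main 2317). In the better-ranked 50% of each class, the difference was 19.03 within 1 kb of a TSS (main 15.4), -0.270 in mean GC (main -1.97), with an interval from -0.854 to 0.313, 5.61 in multi-copy words (main 4.75) and 4.67 near long gaps (main 3.08). Within GC strata it was 11.7 within 1 kb of a TSS and 9.97 for the SF-1 consensus (main 6.75). The SF-1 difference was 9.06 in 200 bp about the centre and 4.09 for the core of 7 bases. Words of 25 bases gave 6.81, and a gap distance of 5 Mb gave 4.35. Within 1 kb, Millipore only, shared and separate sites were near 1007, 457 and 192 genes, and within 100 kb near 4196, 3663 and 4541 (main 2317, 854 and 654). The SF-1 value in GC strata and the next settings were chosen after seeing the data. Over 1 Mb from long gaps, the differences were -1.53 in GC, 3.32 in multi-copy words and 17.7 in recurrence at basal dosage (main 19.2). With only peaks of the median width of 149 bp (3434 Millipore only and 1771 Perseus only), they were 13.9 within 1 kb of a TSS, -2.49 in GC, 8.98 for the SF-1 consensus and 18.1 in recurrence. Apart from what each setting changes by construction, the cause was not tested. No paired analysis was possible because each list pools its libraries and no test was run.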

Other observations

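Some genes were the closest start for many peaks of one antibody. TNS3, a focal adhesion gene, was closest to 19 Millipore only and 4 Perseus only peaks, and HS6ST1, a heparan sulfate enzyme gene, to 14 and 3. VAV2 was closest to 13 and 1, and ZMIZ1 to 12 and 0. In the other direction, TPTE was closest to 23 Perseus only and 4 Millipore only peaks, ZNF33B to 13 and 1, and ALG10 to 12 and 5. ZNF33B was the closest coding gene of the rank 1 Perseus peak, which had 100% multi-copy words and lay 180615 bp from a long gap. Peaks near long gaps were not counted by gene. MYC, a growth regulator with a wide stretch without genes around it, had 12 Millipore only and 10 Perseus only peaks, and POM121L12 had 14 Perseus only and 12 Millipore only peaks. These genes were chosen by their counts, and a gene with distant neighbours collects more peaks, so the counts are a description and no comparison between genes.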
